A study of Mus musculus with 6 samples.

Results

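The genes described here are 7 chemokine ligands in LPS-treated murine renal tubular epithelial cells (mTECs), namely the CXCR3 ligands Cxcl9, Cxcl10 and Cxcl11, and Cxcl12, Cxcl14, Cxcl16 and Cx3cl1. They were taken by symbol from the 22442 genes of the deposited table, and all 7 were above 0 in at least 1 library. Cx3cl1 is strictly a CX3C and not a CXC chemokine. RNA was sequenced from 6 libraries, all from mTECs given LPS (lipopolysaccharide of bacterial cell walls) for 24 h at 20 μg/ml. Beforehand, the labels say, 3 received a negative-control transfection and the other 3 an siRNA, whereas the study lists an shRNA against mouse Stat3. The study describes the line as immortalised, whereas the labels describe cells obtained by magnetic sorting. No library without LPS was analysed here, so induction by LPS could not be measured.

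Stat3, the targeted gene, was measured at 34.6, 31.4 and 35.2 FPKM (fragments on the gene, scaled to its length and to the depth of the library) in the LPS-labelled libraries. It was at 30.8, 35.2 and 34.3 FPKM in those labelled Stat3-silenced. The groups overlapped and the log2 fold change was −0.01 (95% interval −0.17 to 0.14), so that the transcript goes against the label, and the groups are called by their labels throughout. Stat3 protein was not analysed here. The study reports knockdown of Stat3 in mTECs by real-time PCR and by western blot. Whether those cells were of the cultures sequenced is not given in the sources used here. Total fragments per library lay between 24084827 and 25422171. With limma, 379 of 11723 tested genes (3.23%) passed an adjusted p of 0.05, 195 of them with less (1.66%) and 184 with more (1.57%) transcript in the group labelled Stat3-silenced. That count was 158 without LPS replicate 3, and 178, 192 and 168 without Stat3-silenced replicate 1, 2 and 3. Before adjustment, 2058 of the tested genes (17.6%) had a p under 0.05 (limma). The labels do not say whether the libraries came from separate cultures, so p-values measure the spread between these libraries, which may be technical.

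Chemokines are small secreted or membrane-bound proteins that attract leukocytes through G-protein-coupled receptors. Cxcl9, Cxcl10 and Cxcl11 bind Cxcr3 on activated T cells and NK cells and are classically induced by interferons, through factors such as IRF9 at interferon-stimulated response elements (ISRE), with NF-kB as a second input. Cxcl12 acts on Cxcr4 and on the scavenger Ackr3, Cxcl16 on Cxcr6 and Cx3cl1, or fractalkine, on Cx3cr1. Cxcl16 and Cx3cl1 are anchored in the membrane and shed by the proteases Adam10 and Adam17. Injured tubular epithelium is known as a source of several of these ligands.

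The 3 CXCR3 ligand genes lie side by side on the minus strand of chromosome 5 in GRCm38 (GENCODE M21), Cxcl9 at chr5:92321347-92328079, Cxcl10 at chr5:92346638-92348889 and Cxcl11 at chr5:92359544-92365485. Cxcl12 (chr6:117168535-117181367) and Cx3cl1 (chr8:94772009-94782427) are on plus strands, and Cxcl16 (chr11:70453983-70459984) and Cxcl14 (chr13:56288643-56296551) on minus strands. Cxcl11 is annotated as a polymorphic pseudogene and the other 6 as protein-coding. The gene body of Art3, on the opposite strand, spans Cxcl10 and Cxcl11 without an exon over their coding bases, and exons of Zmynd15 cover 15 of the 738 coding bases of Cxcl16 on the opposite strand. Whether counting used the strand is not given in the sources used here. No stretch of 31 coding bases of any of the 7 occurs in a transcript of another gene.

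RefSeq promoters on GRCm38.p6 were found for 5 of the 7, and the 250 bases before the start are shown for 4 of them, Cxcl10, Cxcl9 next to it, and 2 ligands of the contrasting set, so that the response-element letters of each can be compared. Capitals mark matches, on either strand, to an ISRE core (GAAANNGAA), a gamma-activated site or GAS (TTCNNNGAA), a kB site (GGNNNTTCC) or a TATA box (TATAAA). The windows are chr5:92348890-92349139 (minus) for Cxcl10, chr5:92328080-92328329 (minus) for Cxcl9, chr6:117168285-117168534 (plus) for Cxcl12 and chr13:56296552-56296801 (minus) for Cxcl14.
Cxcl10: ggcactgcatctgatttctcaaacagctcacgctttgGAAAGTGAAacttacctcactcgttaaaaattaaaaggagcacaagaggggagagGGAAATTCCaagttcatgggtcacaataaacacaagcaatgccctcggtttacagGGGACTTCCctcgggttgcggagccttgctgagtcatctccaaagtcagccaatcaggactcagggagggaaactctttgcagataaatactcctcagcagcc
Cxcl9: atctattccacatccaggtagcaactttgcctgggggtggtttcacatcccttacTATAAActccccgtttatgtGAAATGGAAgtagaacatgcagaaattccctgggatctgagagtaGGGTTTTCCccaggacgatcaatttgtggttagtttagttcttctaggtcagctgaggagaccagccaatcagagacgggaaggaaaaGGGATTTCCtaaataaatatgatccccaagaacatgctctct
Cxcl12: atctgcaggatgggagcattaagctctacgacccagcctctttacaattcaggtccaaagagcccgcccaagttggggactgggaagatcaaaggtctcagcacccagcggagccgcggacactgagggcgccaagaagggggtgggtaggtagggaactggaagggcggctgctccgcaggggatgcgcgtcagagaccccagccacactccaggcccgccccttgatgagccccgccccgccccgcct
Cxcl14: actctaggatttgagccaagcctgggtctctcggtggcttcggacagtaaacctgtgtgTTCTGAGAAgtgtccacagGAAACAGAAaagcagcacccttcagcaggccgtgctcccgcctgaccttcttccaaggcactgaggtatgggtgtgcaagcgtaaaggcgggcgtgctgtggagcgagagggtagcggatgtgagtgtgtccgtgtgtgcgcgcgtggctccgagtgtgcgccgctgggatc
The Cxcl10 window held 1 ISRE core, at −213 to −205 from the start, and 2 kB sites, at −158 to −150 and −103 to −95. The Cxcl9 window held the same number of each. Its ISRE core was at −175 to −167 and its kB sites at −130 to −122 and −42 to −34. A match to the TATA box letters lay at −195 to −190, further from the start than the ISRE core. Cxcl14 had 1 ISRE core and 1 GAS, and the Cxcl12 window had no match. The Cx3cl1 window had 1 kB site and a TATA box and is not shown, since its RefSeq start lies downstream of the GENCODE one. Of 32851 promoter windows of the same length, 7.13% held the ISRE core, 7.02% the GAS, 15.7% the kB site and 12.4% the TATA box. None of the marked matches overlapped another. Such matches describe letters and not bound sites.

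Of the 7 ligands, Cxcl10 and Cxcl11 fell in the libraries labelled Stat3-silenced, Cxcl11 from at most 7 fragments a library. None rose, and Cxcl9, Cxcl12, Cxcl14, Cxcl16 and Cx3cl1 did not pass the test. In the filtered table, where 5 of the 7 had a mean of at least 0.5 FPKM, 1 was called lower, against 1.66% of all tested genes. Cxcl11 and Cxcl14 were under that mean and were read from a fit of all 16837 genes above 0, in which 1.58% were called and 0.837% were called lower. In bulk RNA, fewer cells that make a transcript and less transcript per cell cannot be told apart.

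Cxcl10 was at 37.6, 33.6 and 36.5 FPKM in the LPS-labelled libraries, from 276, 247 and 263 fragments. It was at 7.60, 3.94 and 4.53 FPKM in those labelled Stat3-silenced, from 56, 28 and 34 fragments. All 3 LPS libraries were far above all 3 Stat3-silenced ones, of which replicate 1 was the highest. The means were 35.9 ± 2.04 and 5.36 ± 1.96 FPKM (SD, n = 3 each), a 6.70-fold difference. On the scale of log2(FPKM + 0.1) the change was −2.78 ± 0.21 (SE; 95% interval −3.25 to −2.30; adjusted p = 2.88e-04, limma). The exact permutation test gave p = 0.1, the smallest it can give for 3 against 3.

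The study also measured Cxcl10 by real-time PCR, and the primers show which bases of the transcript that assay reads.
Forward primer: ccaagtgctgccgtcattttc
Reverse primer: ggctcgcagggatgatttcaa
The forward primer matched chr5:92348788-92348808 and the reverse primer the opposite orientation at chr5:92348114-92348134, both wholly in coding sequence. Each is 21 bases long and matched transcripts of 1 gene, Cxcl10, among 141767 annotated transcripts. The PCR values were not used here.

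Cxcl11 was detected by 7, 4 and 4 fragments in the LPS-labelled libraries and by 0 in each of those labelled Stat3-silenced. In FPKM these were 0.941, 0.537 and 0.548 against 0, so the groups did not overlap, although every value rests on few fragments. A count of 0 allows 3 fragments in each library (0.395 to 0.417 FPKM). The LPS mean was 1.67-fold above that limit, and 1.34-fold above it without LPS replicate 1. These folds allow for counting error in the Stat3-silenced group only, so they are not lower bounds. The adjusted p was 0.0045 (limma, all genes above 0), and the exact permutation test gave p = 0.1. Cxcl11 entered that fit through its LPS-labelled libraries alone, and the size of its change depends on the pseudocount. The limma p is therefore weak support. The gene length of 299 bases behind these counts was found by search and is 3 bases shorter than the annotated merged coding sequence.

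Cxcl9 was at 6.70, 6.80 and 11.4 FPKM in the LPS-labelled libraries, from 63, 64 and 105 fragments. It was at 4.87, 8.57 and 6.56 FPKM in those labelled Stat3-silenced, from 46, 78 and 63 fragments. The groups overlapped, with LPS replicate 3 the highest and Stat3-silenced replicate 1 the lowest. The means of 8.29 ± 2.67 and 6.67 ± 1.85 FPKM (SD, n = 3 each) did not separate (log2 fold change −0.30 ± 0.25 SE, adjusted p = 0.589, limma; exact permutation p = 0.4). The 95% interval, from a change of −45.3% to one of +20.2%, does not reach the −85.4% fitted for Cxcl10. It does not show that Cxcl9 was the same in both groups.

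**Figure D1:**
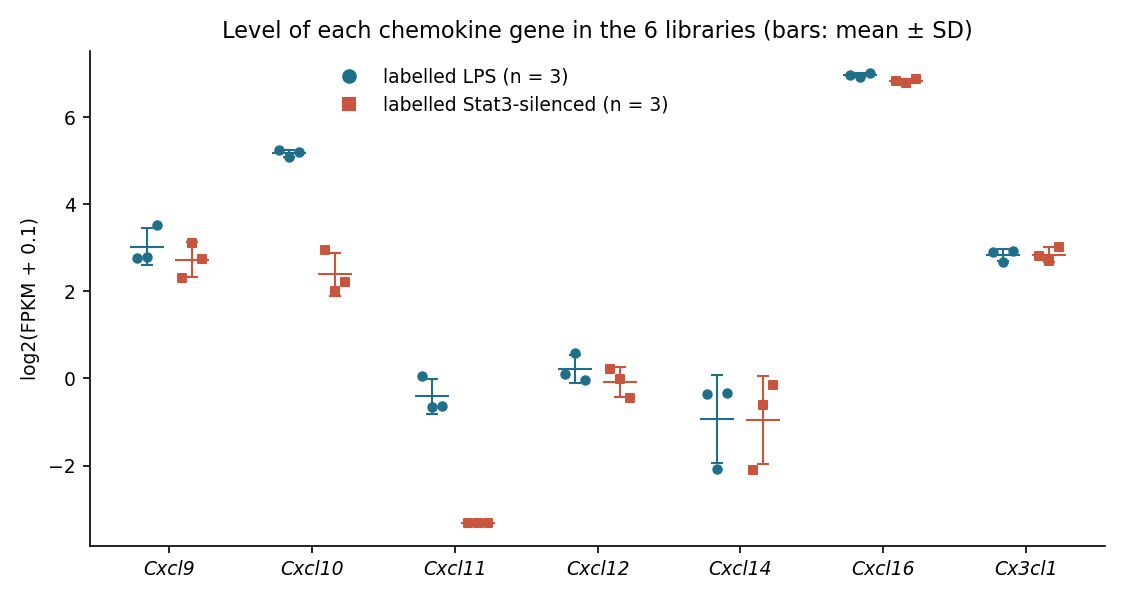
Levels of the 7 ligands as log2(FPKM + 0.1), with 1 point per library, circles for LPS-labelled libraries and squares for those labelled Stat3-silenced, and bars for mean ± SD (n = 3). Cxcl10 separates by 2.78 log2 units and Cxcl11 drops to 0 FPKM in all 3 Stat3-silenced libraries, while the points of Cxcl9, Cxcl12, Cxcl14 and Cx3cl1 overlap and those of Cxcl16 lie close together.

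Among the other ligands, Cxcl16 was the most abundant of the 7. It was at 124, 120.5 and 128 FPKM in the LPS-labelled libraries and at 114, 109.5 and 117 FPKM in the Stat3-silenced group. No overlap was seen, but the difference was small, at −0.13 ± 0.04 on the log2 scale, and did not pass the threshold (adjusted p = 0.150, limma; unadjusted p = 0.0124). Its 95% interval ran from −14.5% to −2.50%. In the fit of all genes above 0, 18.7% had groups that did not overlap, and 3 of the 7 ligands did, Cxcl10, Cxcl11 and Cxcl16.

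Cx3cl1 was at 7.42, 6.26 and 7.49 FPKM in the LPS-labelled libraries and at 6.91, 6.37 and 8.04 FPKM in those labelled Stat3-silenced. The groups overlapped throughout, and the log2 fold change was 0.01 ± 0.12 (SE; adjusted p = 0.983, limma), with a 95% interval from −17.0% to +21.8%. Cxcl12 was at 0.967, 1.40 and 0.875 FPKM against 1.07, 0.888 and 0.631 FPKM, from 6 to 13 fragments a library. With so few fragments its interval of −49.9% to +32.8% was wide, and the log2 fold change of −0.29 ± 0.31 (SE) had an adjusted p of 0.686 (limma). Cxcl14, at 1 to 6 fragments a library, gave 0.676, 0.135 and 0.689 FPKM against 0.135, 0.559 and 0.795 FPKM. For Cxcl14 no difference was detectable at this depth, and its interval ran from −66.1% to +187%.

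The order of levels, per length, differed between the groups in the places of Cxcl10 and Cxcl11, and Cxcl9 and Cx3cl1, whose ranges overlapped in both groups, changed places. In the LPS-labelled libraries it ran Cxcl16, Cxcl10, Cxcl9, Cx3cl1, Cxcl12, Cxcl11 and Cxcl14. Cxcl10 stood 4.33-fold above Cxcl9 there, and neighbours whose libraries overlapped were Cxcl9 with Cx3cl1, Cxcl12 with Cxcl11 and Cxcl11 with Cxcl14. In the libraries labelled Stat3-silenced, Cx3cl1, Cxcl9 and Cxcl10 followed Cxcl16 in overlapping ranges, at means of 7.11, 6.67 and 5.36 FPKM. Cxcl12 and Cxcl14, next in order, also overlapped, and Cxcl11 was last.

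Cxcl10 was also set against other ligands of the same library, as log2 ratios of FPKM + 0.1. The ratio to Cxcl16 was −1.72, −1.84 and −1.81 in the LPS-labelled libraries and −3.89, −4.76 and −4.66 in those labelled Stat3-silenced, a difference of −2.65. The same difference was −2.79 against Cx3cl1, −2.48 against Cxcl12 and −2.76 against Cxcl14, whose ratio rests on 1 to 6 fragments a library. On this scale none of these 4 ratios overlapped between groups, and each exact permutation p was 0.1, the smallest the design allows, as was its Benjamini-Hochberg value over the 4. For Cxcl14 the separation came from the pseudocount. The ratios of the FPKM values themselves, added after the values were seen, were 55.6, 249 and 53.0 in the LPS-labelled libraries and 56.4, 7.05 and 5.71 in those labelled Stat3-silenced, so these groups overlapped (exact permutation p = 0.3), whereas those to Cxcl16, Cx3cl1 and Cxcl12 did not. Against Cxcl9, a comparison added after the values were seen, the log2 ratio was 2.47, 2.29 and 1.67 in the LPS-labelled libraries and 0.63, −1.10 and −0.52 in those labelled Stat3-silenced. It also did not overlap (difference −2.48, exact permutation p = 0.1), with Cxcl10 lower relative to Cxcl9 in each of the 3 libraries labelled Stat3-silenced than in any LPS-labelled library.

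**Figure D2:**
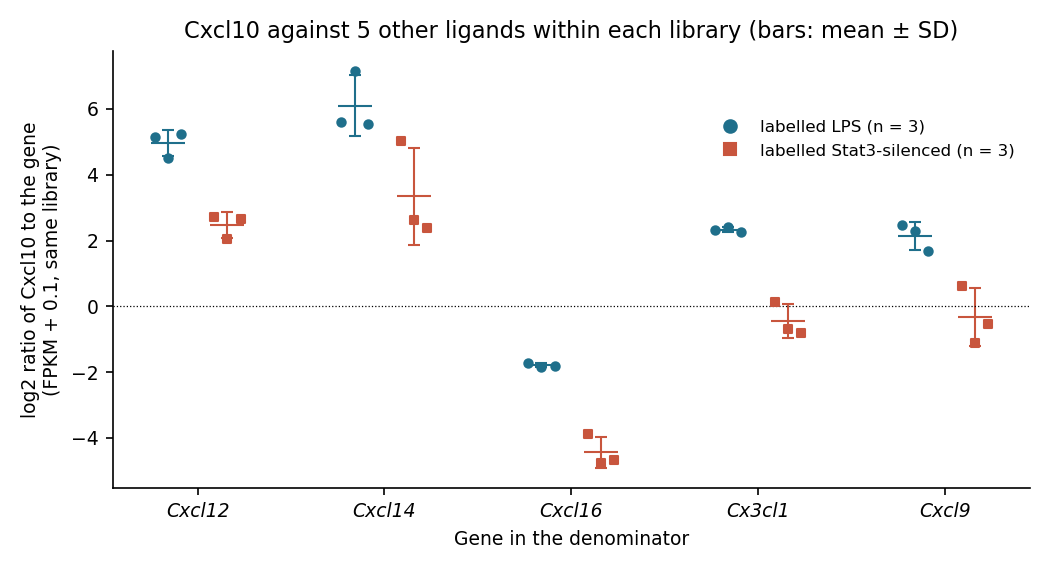
The log2 ratio of Cxcl10 to each of 5 other ligands in the same library (FPKM + 0.1), circles for LPS-labelled libraries and squares for those labelled Stat3-silenced, bars for mean ± SD (n = 3). On this scale each ratio is lower in all 3 Stat3-silenced libraries, with differences of −2.48 to −2.79 log2 units, but the groups overlap for Cxcl14 when 0.1 is not added.

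The interferon signalling genes, a list of 18 of which 16 were tested, held 4 that fell and 2 that rose, and 10 that did not pass. Over all tested genes, 1.66% fell and 1.57% rose. At an unadjusted p under 0.05 (limma) were 7 of the 16, 4 lower and 3 higher, beside 17.6% of all tested genes. The median log2 fold change of the 16 was −0.04, beside −0.01 for all tested genes. Those that fell encode some of the transcription factors (Irf7, Irf9 and Stat2) and a feedback regulator (Usp18) of the type I interferon response. Usp18, a deubiquitinase-like brake on the type I receptor, was at 18.3, 21.4 and 19.0 FPKM against 1.16, 1.16 and 1.56 FPKM (log2 fold change −3.83 ± 0.14, adjusted p = 1.08e-05, limma). Irf7, an amplifier of interferon production, went from 9.59 ± 0.921 to 1.64 ± 0.694 FPKM (−2.55 ± 0.26, adjusted p = 0.00157). For both, every library labelled LPS was above every one labelled Stat3-silenced.

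Irf9 and Stat2 act together at the ISRE. Irf9 went from 21.2 ± 0.422 to 5.48 ± 0.883 FPKM (SD, n = 3 each; log2 fold change −1.94 ± 0.11, adjusted p = 6.51e-05, limma). Stat2 changed least of the 4, by −0.52 ± 0.08 (adjusted p = 0.0131), and its call was lost without LPS replicate 3 (0.0681), Stat3-silenced replicate 1 (0.0607) or replicate 2 (0.0562). The 2 subunits of the interferon gamma receptor rose, Ifngr1 by 0.39 ± 0.03 (adjusted p = 8.92e-04) and Ifngr2 by 0.29 ± 0.05 (adjusted p = 0.0218). The Ifngr2 call was lost without LPS replicate 2 (0.0523) or without Stat3-silenced replicate 1 (0.0847), 2 (0.0824) or 3 (0.0963).

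Jak1, Irf3, Ifnar1, Jak2 and Irf2, the 5 most abundant of the rest, did not pass, and their log2 fold changes lay between −0.04 (Irf2) and 0.10 (Irf3). Irf1, an interferon gamma target and named after its values were seen, was at 17.5, 15.5 and 20.2 FPKM against 15.6, 15.9 and 14.8 FPKM (log2 fold change −0.19 ± 0.10, adjusted p = 0.353, limma). The ligand Ifnb1, also chosen after its values were seen, had 2, 2 and 16 fragments against 0, 0 and 1, and Ifng had 1 fragment in all 6 libraries together. The ligand counts of Ifnb1 were thus low, with LPS replicate 3 far above the others, which was also the library highest in Cxcl9 (11.4 FPKM) but not in Cxcl10 (36.5 FPKM). Whether this had a part in either ligand's level was not tested.

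**Figure D3:**
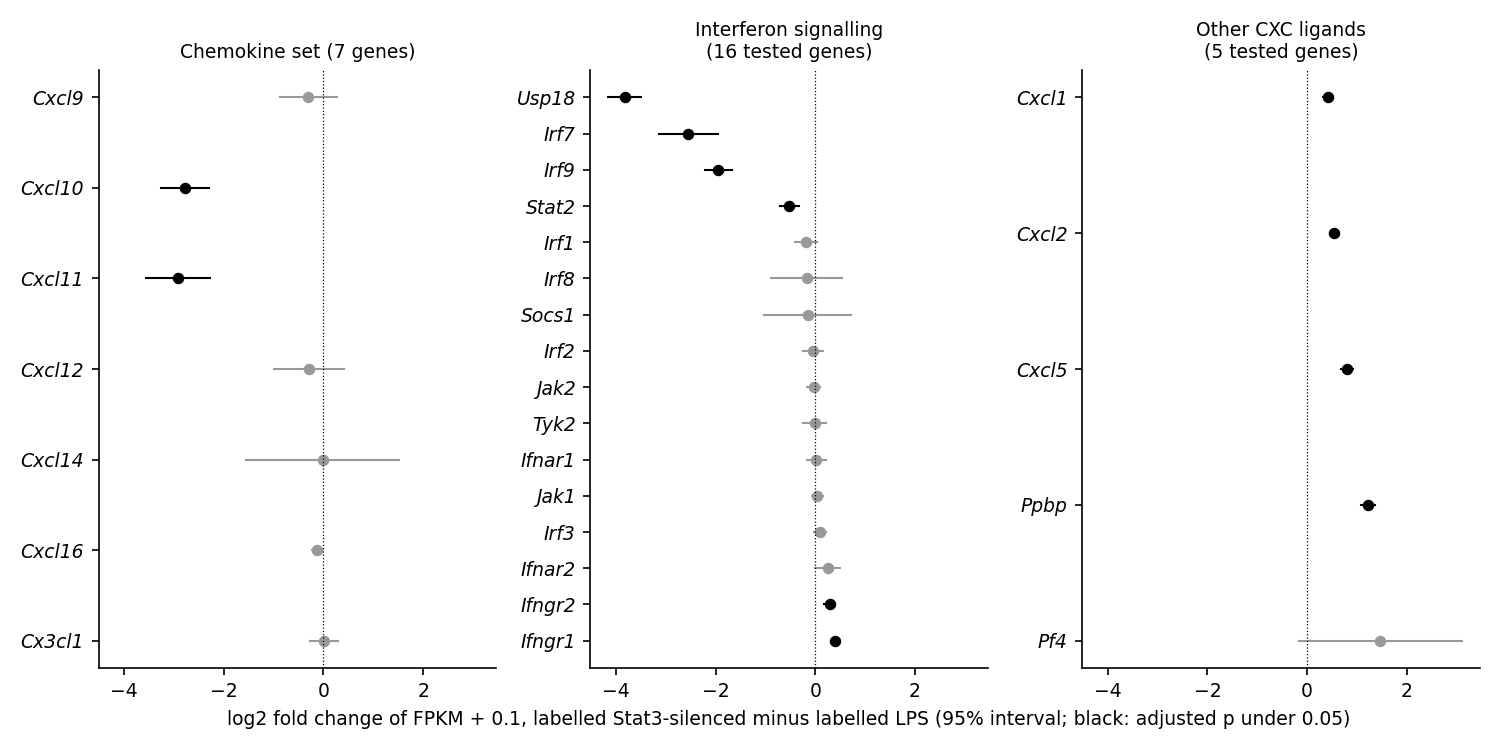
Log2 fold changes of FPKM + 0.1 (libraries labelled Stat3-silenced minus those labelled LPS) with 95% intervals for the 7 ligands, the 16 tested interferon signalling genes and the 5 tested other CXC ligands, in black where the adjusted p was under 0.05. Cxcl10 (−2.78) and Cxcl11 (−2.92, a value set in part by the pseudocount) stand with Usp18, Irf7 and Irf9 on the left, and Cxcl1, Cxcl2, Cxcl5 and Ppbp are to the right of 0.

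Of the 9 other CXC ligands listed, mostly attractants of neutrophils through Cxcr2, 5 were tested and 4 rose, beside 1.57% of all tested genes. The median log2 fold change over the 5 was 0.80, beside −0.01 for all tested genes. Ppbp rose by 1.23 ± 0.06 (adjusted p = 2.44e-05, limma) and Cxcl5 by 0.80 ± 0.05 (adjusted p = 1.18e-04). Cxcl2 rose by 0.54 ± 0.03 (adjusted p = 9.20e-05) and Cxcl1 by 0.42 ± 0.04 (adjusted p = 0.00162), and the same 4 were called under each of the 16 alternatives. Pf4, which did not pass (adjusted p = 0.336), had 18, 6 and 1 fragments against 20, 15 and 14. Cxcl3, Cxcl13, Cxcl15 and Cxcl17 had 0 to 4 fragments a library.

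Beside 3.23% of all tested genes, the LPS receptor and NF-kB list had 0 of 16 genes called by limma. These are transcript levels, which do not measure NF-kB activity, and its part in the Cxcl10 level was not tested. At an unadjusted p under 0.05 were 6 of the 16 (5 of them higher), beside 17.6% of all tested genes. Voom called 4, Cd14, Nfkb1, Nfkbia and Tnfaip3. Without LPS replicate 1, Nfkbia alone was called. The median log2 fold change of the list was 0.08, beside −0.01 for all tested genes. Nfkb1, which encodes the p50 subunit, went from 90.2 ± 2.78 to 101 ± 2.67 FPKM (SD, n = 3 each; log2 fold change 0.16 ± 0.04, adjusted p = 0.0759). The LPS co-receptor gene Cd14 lay just above the threshold (0.19 ± 0.04) and passed it under 4 of the 16 alternatives. The feedback inhibitor gene Tnfaip3 had a change of −0.21 ± 0.05 (adjusted p = 0.0801). Nfkb2 and Rela, the other abundant members, had changes of 0.10 ± 0.04 and 0.00 ± 0.04.

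The signalling receptors Cxcr3, Cxcr4, Cxcr6 and Cx3cr1 had few fragments. Cxcr3 had 0 to 4 fragments a library, Cxcr4 5 to 15, Cxcr6 0 to 10 and Cx3cr1 11 to 22. Of the 13 listed receptor and processing genes, 6 were tested and 0 were called by limma, beside 3.23% of all tested genes. Of the 6, 1 was at an unadjusted p under 0.05, beside 17.6% of all tested genes, and 1 was called by voom. That gene was Sdc1, a heparan sulphate proteoglycan of the cell surface, at 114, 108 and 119 FPKM against 101, 99.7 and 94.6 FPKM (log2 fold change −0.20 ± 0.05, adjusted p = 0.0608). It passed without LPS replicate 2 (adjusted p = 0.0445, limma).

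Ackr3, the scavenger of Cxcl11 and Cxcl12, was at 4.36, 4.62 and 4.78 FPKM against 3.32, 4.74 and 2.57 FPKM (−0.41 ± 0.21, adjusted p = 0.355, limma). The shedding proteases were well expressed and close between groups, Adam10 at 55.5 ± 2.28 against 54.3 ± 1.86 FPKM and Adam17 at 38.6 ± 0.959 against 38.6 ± 1.44 FPKM (SD, n = 3 each). Sdc4 was the most abundant of the list, at 253 ± 5.89 against 245 ± 9.87 FPKM. Dpp4, which trims CXCR3 ligands, had 5 to 15 fragments a library.

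Position on the chromosome was not used to choose the genes. Within 250 kb of Cxcl9, Cxcl10 or Cxcl11 lay 11 other protein-coding genes, of which 7 were tested. Of these, 0 were called by limma or voom and 0 had an unadjusted p under 0.05. Over all tested genes limma called 3.23%, and 17.6% had an unadjusted p under 0.05. With 7 genes, counts of 0 cannot be told apart from these shares. The log2 fold changes of the 7 lay between −0.12 (Scarb2) and 0.16 (Naaa). Cxcl10 and Cxcl11 fell, while the tested genes on either side, and Cxcl9 next to them, did not pass the test. Around the other 4 ligands, 30 of 55 neighbours were tested and 1 was called, beside the 3.23% of all tested genes. It was Adgrg1 near Cx3cl1, an adhesion receptor gene that rose from 103 ± 7.16 to 153 ± 1.36 FPKM (SD, n = 3 each; log2 fold change 0.57 ± 0.05, adjusted p = 8.92e-04).

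**Figure D4:**
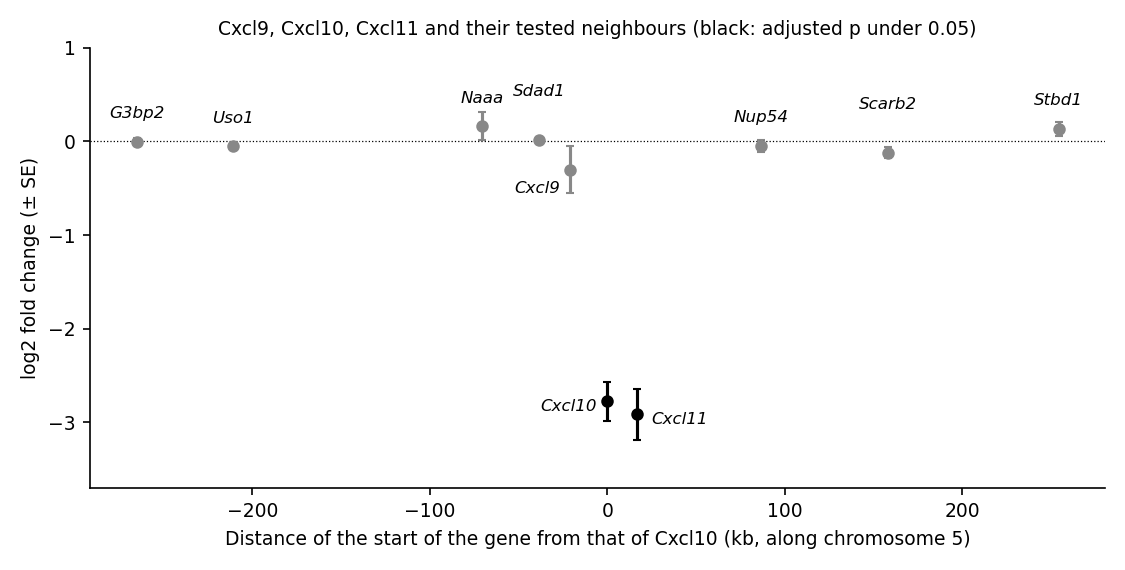
Log2 fold change (± SE) of Cxcl9, Cxcl10, Cxcl11 and the 7 tested protein-coding genes within 250 kb of them, against the distance in kb of each gene's start from that of Cxcl10 along the chromosome. Cxcl10 and Cxcl11 (black, adjusted p under 0.05) lie at −2.78 and −2.92, the latter a value that depends on the pseudocount, and the 7 neighbours lie between −0.12 and 0.16.

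The genes whose log2(FPKM + 0.1) followed each ligand most closely over the 6 libraries were listed as a description. The libraries share their depth and their group labels, so such a likeness carries the group difference. With 11723 genes ranked over 6 libraries, a high r arises easily, and even Cxcl12, at 6 to 13 fragments a library, reached 0.997. For Cxcl10 they were Oas3, an interferon-induced RNA sensor (Pearson r = 0.995), Gfpt1 (0.993) and Shisa5 (0.992). The level of Oas3 averaged 1.29 in the LPS-labelled libraries and 0.114 FPKM in the others. For Cxcl9 the closest was Gbp5, an interferon-inducible GTPase (r = 0.997), at means of 0.819 and 0.646 FPKM, followed by Acap2 (0.986) and Ppm1d (0.986). Gbp5 and Cxcl9 both had LPS replicate 3 highest and Stat3-silenced replicate 1 lowest. The closest genes were Rad51c (0.997), Hexdc (0.991) and Serpina1e (0.984) for Cxcl12, Ptpn21 (0.998), Xpo5 (0.996) and Mlycd (0.991) for Cxcl16, and Gps1 (0.997), Actr1b (0.997) and 2900026A02Rik (0.977) for Cx3cl1. Between Cxcl9 and Cxcl10 themselves r was 0.285. Cxcl10 had an r of 0.881 with Cxcl16, 0.526 with Cxcl12 and −0.006 with Cx3cl1.

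The epithelial label was checked against markers. Krt8, Krt18, Epcam, Cdh1, Pax8 and Cdh16 were abundant in every library, whereas Slc34a1, Umod, Calb1 and Aqp2, which define single nephron segments, were at 0 in all 6, and Lrp2, Slc12a1 and Slc12a3 had at most 3 fragments. The 17 tubule markers summed to 3820 to 3893 FPKM in the LPS-labelled libraries and 3808 to 3860 FPKM in those labelled Stat3-silenced. Of 10 tested, 4 rose (Aqp1, Cdh16, Pax2 and Pax8) and 1 fell (Krt18), beside 1.57% and 1.66% of all tested genes. Of the 10, only 2 were called without LPS replicate 3 or without Stat3-silenced replicate 3. There were 3 without Stat3-silenced replicate 2, and 1, Pax2, without the eBayes trend. The 8 leukocyte markers summed to 58.2 to 64.8 and 61.4 to 74.8 FPKM, mostly Csf1r, Lyz2 and Cd68, while Itgam and Ncr1 had at most 4 fragments. Of the 5 leukocyte markers tested, 1 was called, beside 3.23% of all tested genes. It was Csf1r, which rose (0.45 ± 0.08, adjusted p = 0.0208, limma), and the call was lost without LPS replicate 3 (0.0904) or without Stat3-silenced replicate 1 (0.0856), 2 (0.0835) or 3 (0.0774). The median log2 fold change of the 5 was −0.18. Cd68 was lower without overlap of the groups but did not pass (−0.30 ± 0.11, adjusted p = 0.197, limma). The 7 stromal markers summed to 29.5 to 37.9 FPKM and to 19.4 to 37.9 FPKM, and the 5 endothelial markers to 2.67 to 5.21 and 3.12 to 5.32 FPKM. Each of these 4 sums overlapped between groups, and the part of the markers in the ligands' levels was not tested. Limma called none of the 7 stromal and 3 endothelial markers tested, beside 3.23% of all tested genes, and voom called 0. At an unadjusted p under 0.05 were 0 of them, beside 17.6% of all tested genes. Stat3-silenced replicate 1 had the lowest stromal sum (19.4 FPKM) and the lowest Cxcl9, and the part of the former in the latter was not tested.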

How the data were processed

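RNA-seq of 6 libraries of mTECs was used, 3 labelled LPS and 3 labelled Stat3-silenced, grouped by the sample titles. The authors deposited FPKM values, 1 per gene and library, without pooling of replicates. The submitters' processing notes name HISAT2 2.0, StringTie 1.3.0 and Bowtie 0.12.2 with builds mm8 and GRCh38.p13 but no roles, so that the build and gene models behind the values are not given in the sources used here. Symbols and coordinates are those of GENCODE M21 on GRCm38, which matched 22399 of the 22442 identifiers.

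The fragments behind the FPKM values were worked out from gene lengths and library totals. At a tolerance of 1e-05 fragments, the values of 100% of 16837 genes above 0 were whole, 97.7% at the annotated coding length or up to 10 bases more. With totals raised by 0.1%, 11 genes were whole, but there only the exact annotated length was tried. Lengths found by search, as for Cxcl11, had no such comparison. Library totals were 24084827 to 25422171 fragments. Limits from fragment counts cover counting error only. Replicates of a group differed beyond counting error (chi-square per gene 4.10 to 11.0).

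Tests used limma 3.58.1 in R 4.3.3 (lmFit, eBayes with trend) on log2(FPKM + 0.1), restricted to a gene mean of at least 0.5 FPKM, two-sided, with Benjamini-Hochberg adjustment over all of them at 0.05. On this scale, changes of low genes come out too small. Errors beside log2 fold changes are SE. Genes under the filter were read from the fit of all genes above 0. For single values, a two-sided exact permutation test enumerated the 20 ways to assign the labels. The fit was also run on simulated data with a single spread for all genes. That spread was not matched to these replicates, so no result here rests on it. Tables and plots used Python 3.11.15, numpy 2.4.6, pandas 2.3.3 and matplotlib 3.10.9.

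Genes named are Stat3, the 7 ligands, the called genes of the 4 pathway lists and up to 5 others of each with the highest mean FPKM, the marker lists, called neighbours within 250 kb, and for each ligand with a mean of at least 0.5 FPKM the 3 tested genes most correlated with it. Receptors and sparse genes named beside these, the extremes among the neighbours, Irf1, Ifnb1, Ifng, Nfkbia and Dpp4 were added after their values were seen. The ligands and lists were chosen with earlier results of these data known, and 2 listed genes are not reported here. As alternatives, the fit was repeated with pseudocounts of 1 and 0.01, with a filter of 1 or 0.1 FPKM or no filter, with quantile normalization or median centring, without the eBayes trend, by voom on the fragments, with a block for the replicate number, and leaving out each library.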

Additional observations from a re-analysis of the deposited data

How the results depend on the processing

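The fall of Cxcl10 kept its direction and its call under all 16 alternatives, between −3.06 and −2.58 on the log2 scale, with adjusted p from 1.25e-05 to 0.0108. Cxcl9, Cxcl12 and Cxcl16 kept their direction and stayed short of the threshold in all 16. The 4 ratios of Cxcl10 kept their direction in all 9 alternatives run for them, at an exact permutation p of 0.1 or, for Cxcl14, up to 0.2 with 1 library left out or a pseudocount of 0.01 and 0.3 with none, an alternative chosen after seeing the data. The change of Cxcl14 was 0.012 with quantile normalization, 0.018 with median centring and −0.60 to 0.55 when 1 library was left out. That of Cx3cl1 was −0.083 to 0.082, and that of Stat3 −0.064 to 0.044, when 1 library was left out. The value for Cxcl11 ran from −6.05 to −0.74 with the pseudocount, and it was called in 15 of 16 alternatives.

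The replicate numbers did not pair the libraries (r = −0.016, −0.0039 and −0.043 between same-numbered libraries, with 0 of 6 correlating best with its own number). With the replicate block, Cxcl10 alone of the ligands was called (1), Cxcl11 was not (log2 fold change −2.92, adjusted p = 0.0559, limma), and 213 genes were called over the table, 108 lower and 105 higher. Without the eBayes trend 140 genes were called (84 lower, 56 higher), and with voom 598 (315 lower, 283 higher). Leaving out 1 library gave 158 to 356 genes, 80 to 154 lower and 76 to 202 higher, where fewer libraries enter the fit. The cause of the other shifts was not tested. For the NF-kB list 1 gene was called with a pseudocount of 1, a filter of 1 FPKM or median centring, 4 with voom and 0 to 1 with 1 library left out. For the receptor and processing list the count was 1 with quantile normalization, 1 with voom and 0 to 1 with 1 library left out. Ifngr2 lost its call without the trend (adjusted p = 0.0691, limma) and with the block (0.0570), and Csf1r without the trend (0.0867). Depth limits Cxcl11, Cxcl12 and Cxcl14, at 13 fragments a library or fewer.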
